A study of Mus musculus with 10 samples.

Results

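The vascular endothelial growth factor (VEGF) and angiopoietin systems were followed through 10 genes in bulk mRNA-seq of mouse visceral white adipose tissue. The ligands were Vegfa, Vegfb, Vegfc, Angpt1 and Angpt2, and the receptors were Kdr, Flt1, Flt4, Nrp1 and Tek. The genes were chosen by symbol, and all 10 were found among the 47937 genes of the count tables. Each of them passed the filter on low counts in every comparison. Levels are in CPM, which sets each count against the summed gene counts of that library. Fold changes are log2 values from edgeR's quasi-likelihood test after TMM scaling, with adjusted p-values taken over all genes tested.

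The animals were C57BL/6 mice, either wild type (Mof+/+) or heterozygous for Mof (Mof+/-), the gene Kat8, which encodes an acetyltransferase for histone H4. The study asked how a reduced Mof dose alters fat tissue at baseline and under nutrient stress. On standard diet (SD), 3 Mof+/+ and 3 Mof+/- libraries came from animals aged 8 weeks. On high fat diet (HFD), 2 Mof+/+ and 2 Mof+/- libraries came from animals aged 27 weeks after 20 weeks of the diet, so diet and age cannot be told apart. These ages and times are those of the GEO record, and the paper's text gives a longer time on the diet. The heterozygous state was not limited to fat by any label, and whole tissue was lysed, so fewer cells of a type and less RNA per cell cannot be told apart in any value below.

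VEGF ligands are secreted dimers that bind receptor tyrosine kinases on endothelial cells. VEGFA signals mainly through VEGFR2 (Kdr) and is also held by VEGFR1 (Flt1), VEGFB binds VEGFR1, and VEGFC acts on VEGFR3 (Flt4), best known from lymphatic vessels, with neuropilin-1 (Nrp1) as a co-receptor. ANGPT1 activates the receptor TIE2 (Tek) and stabilises vessels, whereas ANGPT2 can act as its antagonist. In fat, adipocytes are a known source of VEGFA, and the capillary bed grows as the tissue expands.

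Total counts ran from 6724618 to 17171947 on SD, were 15483115 and 16014992 in HFD Mof+/+, and were 1044355 and 5531786 in HFD Mof+/- replicates 1 and 2. HFD Mof+/- replicate 1 stood apart, with 26.9% of counts on mitochondrial genes against 1.79 to 8.82% in the other libraries. Its 16 skeletal muscle markers summed to 76193 CPM, against 52.1 to 1898 CPM elsewhere. A CPM value of 2.87 in that library is only 3 counts, the limit that a count of 0 allows there, while the same limit was 0.175 to 0.542 CPM in the other 9 libraries. Kat8 lay at 21.5, 21.4 and 20.4 CPM in SD Mof+/+ and at 12.2, 18.8 and 11.5 CPM in SD Mof+/-. On HFD it was 18.1 and 19.2 CPM in Mof+/+ and 20.1 and 10.5 CPM in Mof+/-, so HFD Mof+/- replicate 1 did not show the lower level, although its value rests on 21 counts. The column headings inside the third SD tables named the opposite genotype to their GEO titles. The titles were followed, and Kat8 in both libraries went with the titles.

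The SD groups also differed in sex-linked genes, although the study's methods name male mice. Xist, the RNA of the inactive X chromosome, was at 0 counts in all 3 SD Mof+/+ and all 4 HFD libraries and at 139, 46.1 and 58.0 CPM in SD Mof+/-. The Y-linked genes Ddx3y, Eif2s3y, Kdm5d and Uty were at 0 in all 3 SD Mof+/- libraries and were counted in all 3 SD Mof+/+ libraries. Genotype and this sex-linked difference therefore cannot be told apart on SD, and the same holds for diet in Mof+/- and for the interaction. The HFD genotype comparison and the diet comparison in Mof+/+ do not carry it.

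On SD, 3 receptors fell in Mof+/- tissue: Kdr, Flt1 and Flt4, the kinases that bind the VEGF ligands. Their mean levels were each below those in Mof+/+, while Vegfa, Vegfb and the co-receptor Nrp1 did not pass the test. Of all 13864 genes tested, 1.91% were called lower and 5.24% were called in either direction. No member was called higher, beside 3.33% of all genes. The median log2 fold change of the 10 genes was -1.99, beside -0.07 over all genes tested.

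Kdr encodes the main signalling receptor for VEGFA. It lay at 364, 184 and 145 CPM in SD Mof+/+ replicates 1 to 3 and at 49.4, 43.7 and 22.8 CPM in SD Mof+/- replicates 1 to 3. Every Mof+/- library was thus below every Mof+/+ library, and Mof+/+ replicate 1 was the highest of the 6. The log2 fold change was -2.24 (SE 0.41, edgeR adjusted p = 0.0319). Flt1, whose product binds VEGFA and VEGFB, was at 235, 80.5 and 86.2 CPM in Mof+/+ and at 25.3, 19.8 and 27.2 CPM in Mof+/-. The groups were again apart, with Mof+/+ replicate 1 far above the other 2. Its log2 fold change was -2.11 (SE 0.44, edgeR adjusted p = 0.0394). Flt4, the VEGFC receptor, had 46.0, 23.1 and 39.6 CPM in Mof+/+ and 7.75, 10.1 and 5.50 CPM in Mof+/-. Its log2 fold change was -1.87 (SE 0.39, edgeR adjusted p = 0.0394), and here replicate 1 did not stand alone.

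These calls were close to the threshold. Leaving out SD Mof+/+ replicate 1, 2 or 3, or SD Mof+/- replicate 2, left 0 of the 10 genes called, and leaving out SD Mof+/- replicate 1 left 1. Over all 6 fits with 1 SD library left out, the log2 fold change ran from -2.49 to -1.74 for Kdr, from -2.37 to -1.42 for Flt1 and from -2.09 to -1.65 for Flt4. The smallest fall of each was that without SD Mof+/+ replicate 1. Tek ran from -1.69 to -0.59 and Vegfa from -0.46 to -0.08.

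**Figure D1:**
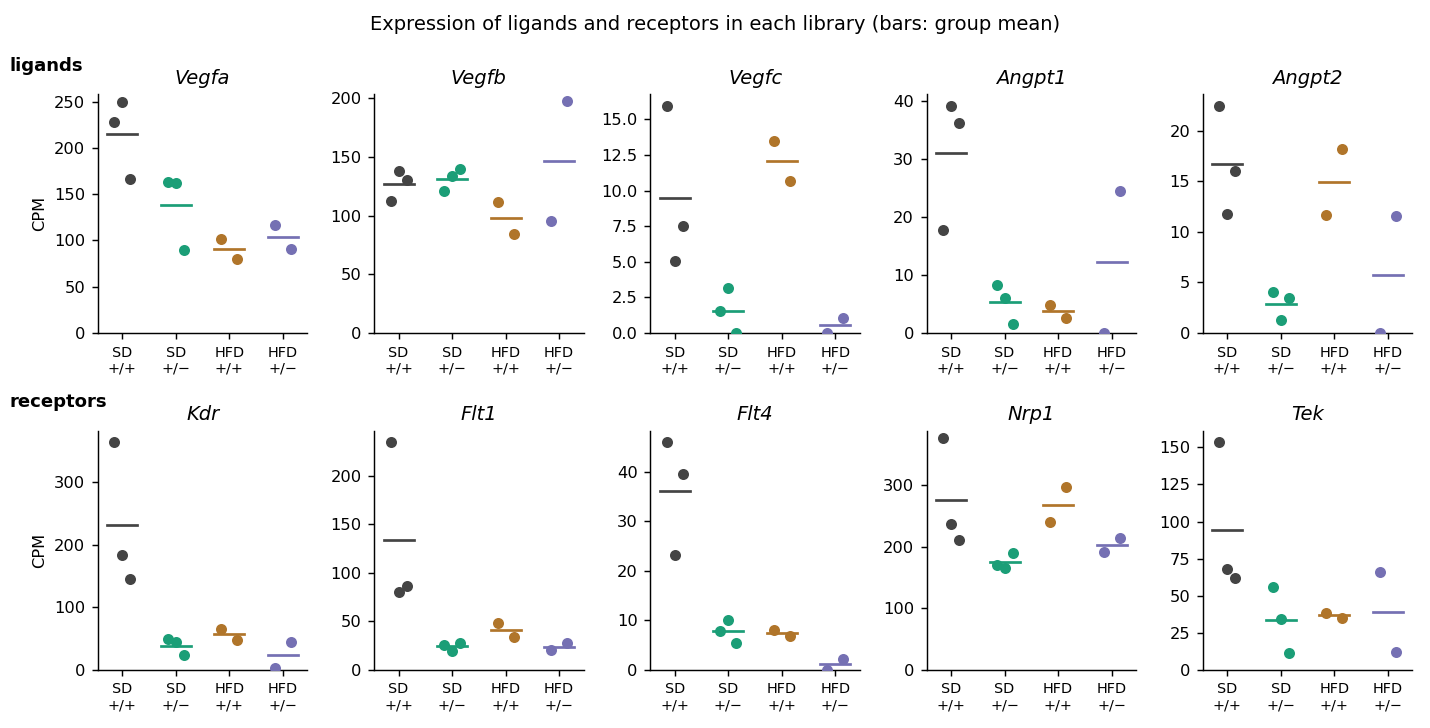
CPM (y axis, linear from 0) of the 5 ligands (upper row) and 5 receptors (lower row) in each of the 10 libraries, grouped by diet and genotype on the x axis, with 1 point per library and a bar at the group mean. Kdr, Flt1 and Flt4 are high in the 3 SD Mof+/+ libraries and low in the other 7, whereas Vegfb and Nrp1 span a narrower range.

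Nrp1 encodes a co-receptor that is also found outside vessels. It had 378, 237 and 212 CPM in Mof+/+ and 170.3, 166 and 189.6 CPM in Mof+/-, so the CPM values did not overlap. After TMM scaling its log2 fold change was -0.29 with a 95% interval of -0.94 to 0.35 (edgeR adjusted p = 0.564). Tek, the angiopoietin receptor, was at 154, 67.8 and 61.8 CPM in Mof+/+ and at 56.1, 34.0 and 11.5 CPM in Mof+/-. The lowest Mof+/+ library was only just above the highest Mof+/- library, and the log2 fold change of -1.15 (SE 0.54) was not called (edgeR adjusted p = 0.223).

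Among the ligands, Vegfa was at 228, 249 and 167 CPM in SD Mof+/+ and at 163, 162 and 89.5 CPM in SD Mof+/-. The groups nearly touched on CPM, and the scaled log2 fold change was -0.29 with an interval of -0.94 to 0.35 (edgeR adjusted p = 0.563). Vegfb had 112, 138 and 130.4 CPM in Mof+/+ against 121, 133 and 139 CPM in Mof+/-. It was the only member whose groups overlapped, with a log2 fold change of 0.42 (interval -0.09 to 0.92, edgeR adjusted p = 0.281). The test does not show that the levels were equal. Vegfc was scarce, at 16.0, 5.07 and 7.49 CPM in Mof+/+ and 1.51, 3.17 and 0 CPM in Mof+/-, with a log2 fold change of -2.26 (SE 1.17, edgeR adjusted p = 0.263).

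Both angiopoietins were low in abundance and did not pass the test. Angpt1, the TIE2 agonist, was at 17.8, 39.2 and 36.3 CPM in Mof+/+ and at 8.21, 6.04 and 1.64 CPM in Mof+/-. The groups did not overlap, and its log2 fold change was -2.20 (SE 0.58, edgeR adjusted p = 0.0606). Angpt2 had 22.5, 11.8 and 16.0 CPM in Mof+/+ and 4.02, 1.25 and 3.42 CPM in Mof+/-, with a log2 fold change of -2.16 (SE 0.62, edgeR adjusted p = 0.0726). DESeq2 called 5 members on SD, the 3 kinases and both angiopoietins, among 2198 of 15858 genes (13.9%). In simulated data of this comparison 27.6% of its calls were false against 5.49% for edgeR. Those counts were drawn with edgeR's fitted dispersions, so they are no neutral comparison of the tools.

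In 9 of the 10 genes every Mof+/- library lay below every Mof+/+ library on CPM. That separation alone is common in these libraries: 30.6% of all genes tested showed it in this direction and 9.71% in the other. The direction of the small fold changes depends on the treatment of transcript length. With a correction for exon length, Nrp1 moved to 0.31 and Vegfb to -0.23, and Kdr was the only member still called.

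The promoter sequences of members with different outcomes on SD are shown because 3 receptors moved together. RefSeq start sites on GRCm38.p6 were available for 8 of the 10 genes. The sequences are the 250 bases before the start site, 5′ to 3′ on the coding strand. Capitals mark matches to any of 5 motifs on either strand. The Sp1 core was searched as GGGCGG. For ETS factors, the family that includes the endothelial regulator ERG, only the sequence CCGGAA was searched. Other ETS sites were not counted. The TATA box was searched as TATAAA, and the core of the hypoxia response element only in the form ACGTG. The E-box, which contains the hypoxia core, was CACGTG. Kdr lies at chr5:75978456-75978705 and Flt1 at chr5:147726012-147726261, both on the minus strand. Vegfb, which was not called, lies at chr19:6987652-6987901 on the minus strand, and Tek, also not called, at chr4:94739039-94739288 on the plus strand.
Kdr: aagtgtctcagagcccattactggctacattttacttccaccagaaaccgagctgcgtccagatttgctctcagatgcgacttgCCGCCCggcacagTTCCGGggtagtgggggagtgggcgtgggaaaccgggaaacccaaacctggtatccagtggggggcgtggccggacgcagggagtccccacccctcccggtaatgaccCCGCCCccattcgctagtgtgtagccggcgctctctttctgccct
Flt1: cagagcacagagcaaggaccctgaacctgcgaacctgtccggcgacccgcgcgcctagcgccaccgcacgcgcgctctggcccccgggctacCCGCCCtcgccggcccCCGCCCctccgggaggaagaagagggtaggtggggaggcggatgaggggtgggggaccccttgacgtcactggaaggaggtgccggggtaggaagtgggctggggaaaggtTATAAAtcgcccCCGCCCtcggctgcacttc
Vegfb: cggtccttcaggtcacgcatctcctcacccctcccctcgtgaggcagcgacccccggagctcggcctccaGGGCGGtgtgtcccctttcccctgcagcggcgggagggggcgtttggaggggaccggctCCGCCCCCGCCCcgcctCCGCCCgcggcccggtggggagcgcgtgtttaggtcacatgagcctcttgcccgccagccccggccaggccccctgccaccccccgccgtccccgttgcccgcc
Tek: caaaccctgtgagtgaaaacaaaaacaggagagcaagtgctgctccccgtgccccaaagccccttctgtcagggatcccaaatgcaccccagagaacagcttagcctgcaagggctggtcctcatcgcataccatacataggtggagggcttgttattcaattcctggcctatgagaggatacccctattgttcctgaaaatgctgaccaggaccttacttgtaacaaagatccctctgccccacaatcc
The Kdr window held 2 matches to GGGCGG and 1 to CCGGAA, and the Flt1 window 3 to GGGCGG and 1 to TATAAA. Vegfb had 4 matches to GGGCGG, and Tek had no match to any of the 5 motifs. GGGCGG is frequent, with a match in 32.7% of 32851 promoter windows of this length, against 12.0% for CCGGAA, 12.4% for TATAAA, 16.6% for ACGTG and 6.02% for CACGTG. Of the 8 genes with a window, 7 held GGGCGG, in both outcomes. The form ACGTG of the hypoxia core was found only in the second of 2 Vegfa windows, 1 time. Other forms of this core were not searched, so their absence is not shown.

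The remaining genes of the family on SD behaved in both ways. Tie1, the partner of TIE2, fell by 2.86 on the log2 scale (SE 0.44, edgeR adjusted p = 0.0235), and Ptprb, the endothelial phosphatase that restrains TIE2, fell by 3.07 (SE 0.58, edgeR adjusted p = 0.0326). Tie1 was at 292, 96.3 and 116 CPM in Mof+/+ and at 20.6, 19.2 and 14.4 CPM in Mof+/-. Neuropilin-2 (Nrp2) had a log2 fold change of -1.49 (edgeR adjusted p = 0.0520). The ligands Vegfd (0.81), Pgf (-2.29) and Angpt4 (-1.69) were not called, and Pgf and Angpt4 stayed below 10 CPM in every library. The family list therefore had 2 of 6 called lower and 0 called higher.

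Downstream of the receptors, 2 of 32 tested signalling genes were called lower on SD and 0 higher. These were Plcg1, the phospholipase that docks on VEGFR2, at -1.13 (edgeR adjusted p = 0.0476), and Ptk2, the focal adhesion kinase, at -1.11 (edgeR adjusted p = 0.0491). The list's median log2 fold change was -0.36. Of 17 hypoxia genes tested (HIF subunits, their regulators and targets), 0 were called by edgeR, with 4 higher and 6 lower at an unadjusted p under 0.05. Beside that, 25.7% of all genes passed the unadjusted threshold in either direction.

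Endothelial markers moved with the receptors. Of 15 markers, 15 had a log2 fold change below 0 on SD, as did 53.2% of all genes and 9 of the 10 members, and 7 were called lower, with a list median of -1.72. Vwf, the clotting factor stored in endothelial cells, fell by 3.70, Cdh5, which encodes VE-cadherin, by 3.07, and Pecam1, the CD31 antigen, by 2.38. Robo4 fell by 2.44. The summed marker level was 1807 to 4131 CPM in SD Mof+/+, highest in replicate 1, and 535 to 748 CPM in SD Mof+/-. No endothelial marker was at 0 in any SD library. Pericyte and smooth muscle markers were split, with 4 of 10 called lower (Notch3, Abcc9, Rgs5 and Pdgfrb) and 0 higher. The 4 contractile genes Acta2, Tagln, Myh11 and Cnn1, named after their values were seen, were higher at an unadjusted p under 0.05 but not called (log2 fold changes of 3.06, 4.09, 2.06 and 5.71). Tagln was at 80.3, 1337 and 2927 CPM in SD Mof+/- replicates 1 to 3 and at 69.6 to 168 CPM in Mof+/+, so replicates 2 and 3 carried the difference. The summed level of the list ranged from 429 to 6151 CPM in Mof+/- and from 926 to 1440 CPM in Mof+/+. The share of these cell types in the fall of the receptors was not tested.

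Expressed as a percentage of the summed endothelial markers in the same library, Kdr was 8.01 to 9.37% in SD Mof+/+ and 3.04 to 9.23% in SD Mof+/-, so the groups overlapped. Flt1 was 4.11 to 5.69% against 3.51 to 4.73%, and Flt4 1.11 to 2.19% against 0.735 to 1.79%, also overlapping. In contrast, Nrp1 was 9.15 to 12.1% in Mof+/+ and 25.3 to 31.8% in Mof+/-, and Vegfb 2.71 to 7.21% against 18.6 to 23.7%, both without overlap. Vegfa, at 5.53 to 12.7% against 12.0 to 30.5%, overlapped slightly. This scaling was added as a description, without a test. The make-up of the sum varied between libraries. Cldn5 was 243 of 748 CPM in SD Mof+/- replicate 3, 34.3 of 535 CPM in SD Mof+/- replicate 1 and 325 of 4131 CPM in SD Mof+/+ replicate 1.

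**Figure D2:**
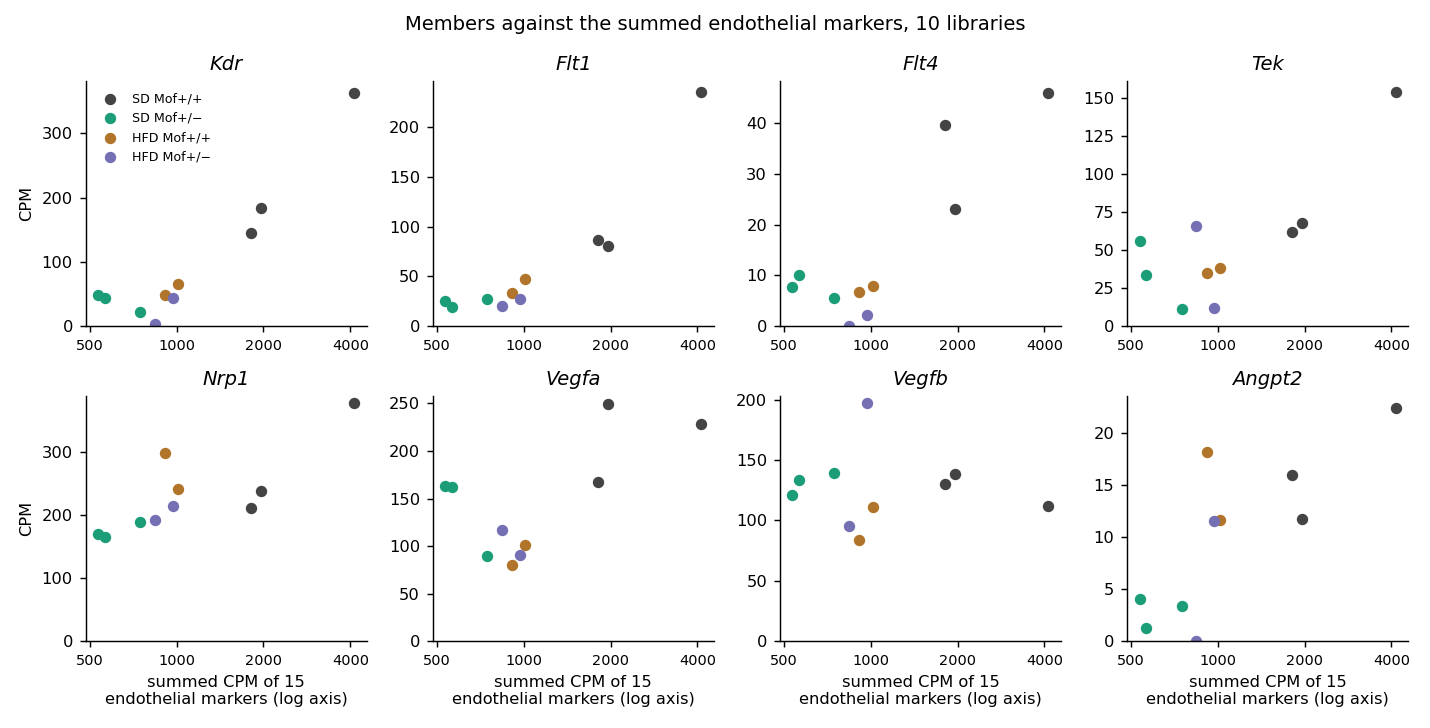
CPM of 8 members (y axis, linear) against the summed CPM of 15 endothelial markers in the same library (x axis, log scale), with 1 point for each of the 10 libraries, coloured by group. Kdr, Flt1 and Flt4 are highest in the 3 SD Mof+/+ libraries, which also have the most endothelial marker RNA, and Vegfb shows no such order.

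Other cell types moved as well on SD. Of 10 adipocyte markers, 4 were called higher (Fabp4, Cidec, Adipoq and Retn), at log2 fold changes of 1.46 to 1.79, and 0 lower. Of 6 mesothelial markers, 3 were called higher (Upk3b, Msln and Wt1) and their sum was 151 to 330.4 CPM in Mof+/- against 22.5 to 61.4 CPM in Mof+/+. Macrophage markers had 2 of 10 called higher (C1qa and C1qb) and progenitor markers 2 of 10, both with 0 called lower. Lymphatic markers were split. Of 5 tested, Pdpn was called higher at 1.36 and 0 were called lower, but 3 lay below 0 without overlap between the groups and the list median was -1.52. These 3, named after their values were seen, were Prox1 at -2.18, Reln at -2.11 and Mmrn1 at -1.52 (edgeR adjusted p = 0.280, 0.114 and 0.0593). Prox1, the transcription factor that defines lymphatic endothelium, was at 5.48 to 10.5 CPM in Mof+/+ and at 0 to 2.30 CPM in Mof+/-. Oligodendrocyte and glial markers had 3 of 6 called lower, and their sum reached 1204 CPM in SD Mof+/+ replicate 2 against 45.8 to 170.2 CPM in the other 5 SD libraries. Of 4 skeletal muscle markers tested, 0 were called by edgeR and 1 had an unadjusted p under 0.05.

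Long transcripts tended to be lower in SD Mof+/- libraries. Across the 13832 tested genes with a known exon length, Spearman's rho between log2 fold change and exon length was -0.43, a description over genes that are not independent. The receptors are long, with exon lengths of 13504 bases for Flt1, 9785 for Nrp1, 9030 for Kdr, 8232 for Flt4 and 4712 for Tek. The ligands ran from 1605 bases for Vegfb to 5205 for Angpt1, which is longer than Tek. After correction for length, the log2 fold changes of Kdr, Flt1 and Flt4 were -1.75, -1.43 and -1.38, with edgeR adjusted p-values of 0.0385, 0.120 and 0.0768.

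**Figure D3:**
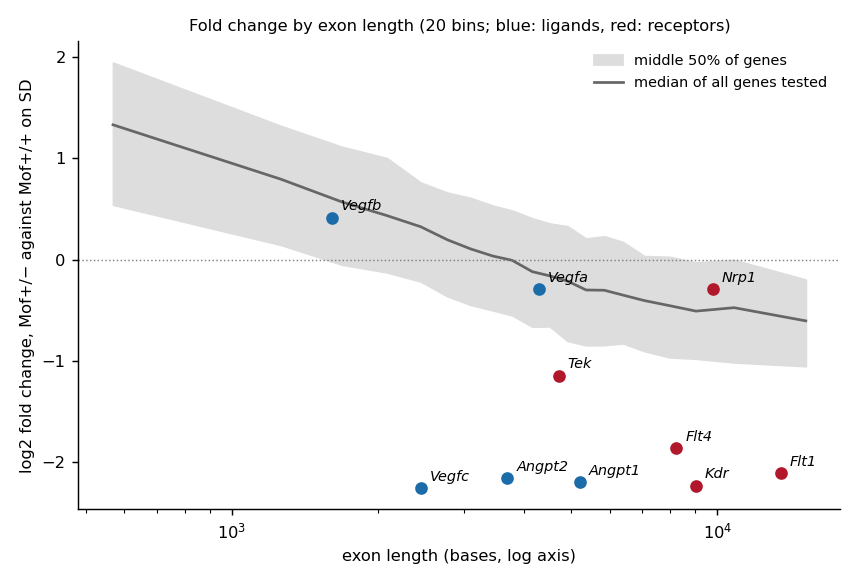
Log2 fold change of Mof+/- against Mof+/+ on SD (y axis) by exon length in bases (x axis, log scale), with the median of all genes tested in 20 length bins as a line, their middle 50% shaded, and the 10 members as points. Vegfb, Vegfa and Nrp1 lie within the shaded band, and the other 7 members lie below it.

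The ratio of a ligand to its receptor within a library does not depend on the scaling between libraries. The count ratio Vegfa/Kdr was 0.628, 1.36 and 1.15 in SD Mof+/+ and 3.31, 3.71 and 3.93 in SD Mof+/-. The groups did not overlap, and the geometric mean was 3.66-fold higher in Mof+/-. Vegfa/Flt1 was 0.972, 3.10 and 1.93 against 6.44, 8.20 and 3.28, a 3.10-fold difference. Vegfb/Flt1 was 0.477, 1.71 and 1.51 against 4.78, 6.73 and 5.11, a 5.11-fold difference. For each of these 3 ratios the two-sided exact permutation test over 6 libraries gave p = 0.1, the smallest it can give, or 0.233 after Benjamini-Hochberg adjustment over 7 ratios. None of the 7 ratios could therefore reach the threshold.

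The other 4 ratios overlapped between the genotypes on SD. Angpt1/Tek was 0.116, 0.578 and 0.587 in Mof+/+ and 0.147, 0.179 and 0.148 in Mof+/-. Angpt2/Tek was 0.146, 0.175 and 0.260 against 0.0721, 0.0381 and 0.303, and the exact permutation p was 0.4 for both. Vegfc/Flt4 and Angpt2/Angpt1 had exact permutation p-values of 0.5 and 0.9. Length differs between a ligand and its receptor, and with length-corrected levels only 1 of the 7 ratios was free of overlap.

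**Figure D4:**
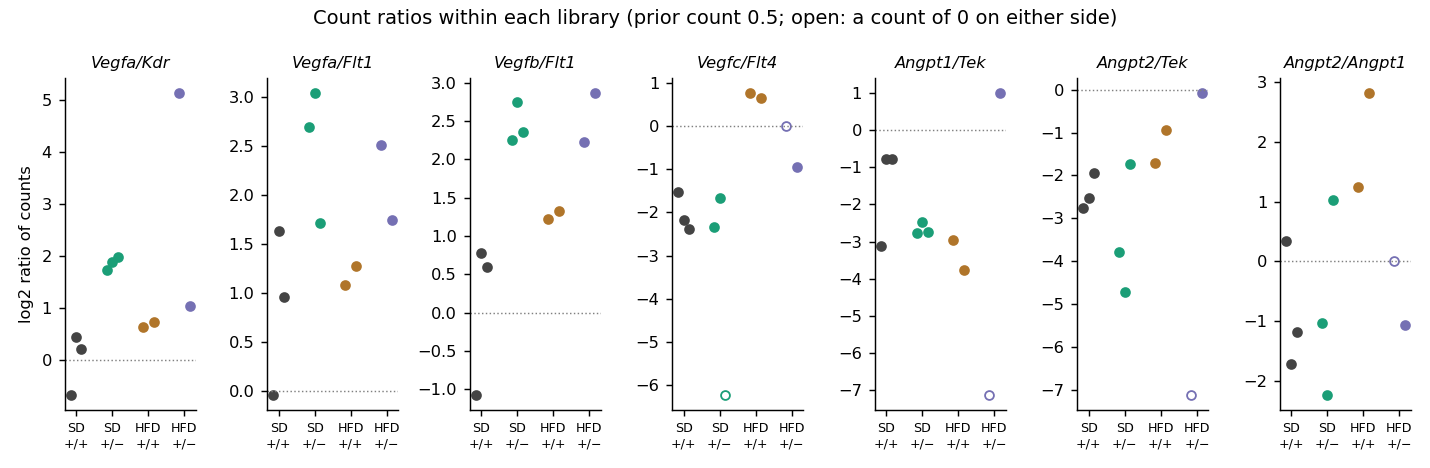
Log2 ratio of counts of ligand to receptor, or of antagonist to agonist in the last panel (y axis), within each library, by diet and genotype (x axis), with 1 point per library and a prior count of 0.5. Open points have a count of 0 on at least 1 side and their height depends on the prior count, and the first 3 panels show SD Mof+/- above SD Mof+/+.

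Per kilobase of exon, the most abundant ligand was Vegfb, with a mean of 79.0 ± 8.34 CPM per kb in SD Mof+/+ (SD, n = 3) and 81.8 ± 5.80 in SD Mof+/- (SD, n = 3). Vegfa followed, at 50.1 ± 10.01 and 32.3 ± 9.88 CPM per kb, and the ranges of the 2 ligands did not overlap in either group. Angpt1 (5.97 ± 2.23), Angpt2 (4.54 ± 1.46) and Vegfc (3.88 ± 2.34 CPM per kb) were far below in SD Mof+/+ and did not differ from one another beyond their spread. Among receptors in SD Mof+/+, Nrp1 (28.2 ± 9.16), Kdr (25.5 ± 12.9) and Tek (20.1 ± 10.9 CPM per kb) overlapped. Flt1 (9.92 ± 6.49) overlapped Kdr and Tek but not Nrp1, and Flt4 (4.40 ± 1.43) lay below all of them. In SD Mof+/- Nrp1 led alone at 17.9 ± 1.30 CPM per kb, above Tek (7.18 ± 4.74) and Kdr (4.28 ± 1.55), which overlapped. Flt1 (1.79 ± 0.287) and Flt4 (0.944 ± 0.278) followed, with Flt4 below Flt1 in every library. These orders, and the sums below, rest on dividing by exon length. Before that division, mean levels in SD Mof+/+ were 215 CPM for Vegfa and 127 CPM for Vegfb. Spearman's rho between count and exon length over genes was 0.12 to 0.15 in SD Mof+/+ and -0.14 to 0.05 in SD Mof+/-.

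The sum of the 3 VEGF ligands per kb, divided by that of Kdr, Flt1 and Flt4, was 2.05, 5.02 and 4.52 in SD Mof+/+ and 13.8, 16.2 and 20.7 in SD Mof+/-. On HFD it was 8.42 and 8.72 in Mof+/+ and 48.1 and 20.3 in Mof+/-, where the first value rests on 3 Kdr and 21 Flt1 counts and 0 of Flt4. The ligand sum itself ranged only from 75.3 to 146 CPM per kb over the 10 libraries, whereas the receptor sum ranged from 1.81 to 63.2 CPM per kb.

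HFD feeding was compared with SD in Mof+/+ animals, where both groups had the same sex-linked pattern. Here 4 members fell: the ligands Vegfa and Angpt1 and the receptors Kdr and Flt4. Of 14939 genes tested, 3.73% were called lower and 9.75% in either direction. No member was called higher, beside 6.02% of all genes. The median log2 fold change of the 10 genes was -1.18, beside -0.04 over all genes.

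Angpt1 was at 4.91 and 2.56 CPM in HFD Mof+/+, against 17.8 to 39.2 CPM in SD Mof+/+, and its log2 fold change was -2.93 (SE 0.51, edgeR adjusted p = 0.0198). Flt4 was at 7.94 and 6.81 CPM, with a log2 fold change of -2.17 (SE 0.37, edgeR adjusted p = 0.0186). Kdr was at 65.0 and 48.3 CPM and Vegfa at 101 and 80.2 CPM. Their log2 fold changes were -1.90 (SE 0.42, edgeR adjusted p = 0.0372) and -1.12 (SE 0.24, edgeR adjusted p = 0.0358). For all 4 genes both HFD libraries lay below all 3 SD libraries.

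Flt1, at 47.7 and 33.3 CPM, and Tek, at 38.2 and 35.1 CPM, also lay below their SD values but were not called, at log2 fold changes of -1.60 and -1.24 (edgeR adjusted p = 0.0906 and 0.104). Vegfb was at 111 and 83.9 CPM, with a log2 fold change of -0.26 (edgeR adjusted p = 0.457). In all, 7 members were thus free of overlap in the lower direction, beside 28.2% of all genes tested. For Vegfb the nearest libraries, at 111.3 CPM on HFD and 112.0 CPM on SD, differed by less than the counting error. Their exact binomial 95% intervals were 106.1 to 116.7 and 104.7 to 119.7 CPM. Angpt2, at 11.6 and 18.2 CPM, Vegfc, at 13.5 and 10.7 CPM, and Nrp1, at 241 and 297 CPM, overlapped their SD values, with log2 fold changes of -0.04, 0.47 and 0.09.

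The count of 4 fell to 0 without either HFD Mof+/+ library, to 1 without SD Mof+/+ replicate 1 and to 2 without SD Mof+/+ replicate 2, and rose to 6 without SD Mof+/+ replicate 3. In one fit of all 10 libraries 0 of the 4 were called. With the correction for exon length 3 of the 4 were called, and Kdr was at -1.50 (edgeR adjusted p = 0.0662). Within the rest of the family, Ptprb was called at -1.99 (edgeR adjusted p = 0.0452), and Tie1 was at -1.82 (edgeR adjusted p = 0.0633). The log2 fold changes of Vegfd, Pgf, Nrp2 and Angpt4 were -0.22, -0.05, -0.05 and -2.65, none of them called.

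Marker levels moved beside these genes in the diet comparison too. Of 15 endothelial markers, 15 were below 0, as were 52.2% of all genes and 8 of the 10 members, and 3 were called lower (Vwf, Cdh5 and Cldn5), with a median of -1.22 and sums of 1014 and 914 CPM in HFD Mof+/+. Lymphatic markers had 3 of 5 called lower: Prox1 at -3.91, Mmrn1 at -3.75 and Reln at -3.51. Pdpn rose by 1.43. Mural markers had 5 of 10 called lower. Macrophage markers had 6 of 10 called higher, led by Cd68 (3.36) and Itgam (3.35), and 1 lower (Cd163 at -2.44). Adipocyte markers had 1 of 10 called higher (Lep at 2.30) and 3 lower (Cfd at -4.20, Adrb3 at -1.85 and Retn at -1.33). Glial markers had 3 of 8 called lower, and 0 of 10 progenitor, 0 of 6 mesothelial and 0 of 5 muscle markers were called by edgeR, with 2, 0 and 0 of them at an unadjusted p under 0.05. Their part in the members' changes was not tested.

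As a percentage of the summed endothelial markers, Kdr was 5.28 to 6.41% in HFD Mof+/+ against 8.01 to 9.37% in SD Mof+/+, and Flt4 0.745 to 0.783% against 1.11 to 2.19%, both lower without overlap. Flt1 overlapped, at 3.64 to 4.70% against 4.11 to 5.69%, and so did Vegfa, at 8.78 to 9.97% against 5.53 to 12.7%. Nrp1 was higher, at 23.7 to 32.5% against 9.15 to 12.1%, and so were Vegfb, at 9.18 to 10.97% against 2.71 to 7.21%, Vegfc, at 1.17 to 1.33% against 0.258 to 0.414%, and Angpt2, at 1.15 to 1.99% against 0.544 to 0.886%. Tek was also higher without overlap, but narrowly, at 3.77 to 3.84% against 3.42 to 3.73%. Angpt1 overlapped, at 0.280 to 0.484% against 0.430 to 2.01%.

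Signalling genes downstream of the receptors went both ways with diet in Mof+/+. Of 33 tested, 3 rose, among them Dok2, an adaptor of TIE2, at 2.36 and Shc2 at 1.29, and 3 fell, among them Pik3r1, a PI3-kinase subunit, at -2.63 and Prkca at -1.22. Of 18 hypoxia genes, 0 were called by edgeR, and 1 higher and 6 lower passed an unadjusted p under 0.05, beside 28.4% of all genes in either direction. The count ratio Vegfc/Flt4 was 1.70 and 1.57 in HFD Mof+/+ against 0.190 to 0.348 in SD Mof+/+, and Angpt2/Tek was 0.305 and 0.518 against 0.146 to 0.260. Angpt2/Angpt1 was 2.36 and 7.02 against 0.302 to 1.27, Vegfa/Kdr 1.55 and 1.66 against 0.628 to 1.36, and Vegfb/Flt1 2.33 and 2.52 against 0.477 to 1.71. These 5 ratios were higher in HFD Mof+/+ without overlap. Vegfa/Flt1, at 2.12 and 2.41, and Angpt1/Tek, at 0.129 and 0.0738, overlapped their SD values, and with 2 against 3 libraries no test was made.

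Between the genotypes on HFD, 0 of the 10 genes and 0 of 14120 genes in all were called by edgeR. At an unadjusted p under 0.05 there were 0 members, beside 12.3% of all genes. DESeq2 called 0 members and 198 genes in all. In simulated data of this comparison edgeR recovered 0% of 200 genes with a 4-fold change, so a change of that size was not detectable by edgeR with these 4 libraries. DESeq2 recovered 12.5% of them, and 81.5% of its calls were false, in counts likewise drawn with edgeR's fitted dispersions.

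The HFD Mof+/- libraries differed widely from each other. Kdr was at 2.87 CPM in replicate 1, a count of 3, and at 43.9 CPM in replicate 2. Tek was at 66.1 and 12.3 CPM, Vegfb at 95.8 and 197 CPM, and Vegfa at 117 and 90.7 CPM. Vegfc, Flt4, Angpt1 and Angpt2 had 0 counts in replicate 1, which allows up to 2.87 CPM, and 1.08, 2.17, 24.4 and 11.6 CPM in replicate 2. Nrp1 was at 192 and 214 CPM, and Flt1 at 20.1 and 27.1 CPM. Marker levels differed from HFD Mof+/+ too, although 0 genes were called. At an unadjusted p under 0.05, 15 of 15 muscle markers were higher and 4 of 10 macrophage markers lower. Muscle markers summed to 1898 CPM also in replicate 2, against 79.2 and 70.0 CPM in HFD Mof+/+. Endothelial markers had 8 of 15 above 0 and 7 below. Their part in the members' values was not tested.

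Against HFD Mof+/+, 6 members lay lower in both Mof+/- libraries on CPM, namely Vegfc, Kdr, Flt1, Flt4, Nrp1 and Angpt2, beside 45.6% of all genes tested. For Angpt2 the nearest libraries, at 11.57 CPM in Mof+/- and 11.63 CPM in Mof+/+, differed by less than the counting error (exact binomial 95% intervals of 8.91 to 14.8 and 9.99 to 13.5 CPM). The widest interval among them was that of Vegfc, from -7.93 to 0.25 around -3.82 (edgeR adjusted p = 0.451), and the narrowest that of Nrp1, from -0.86 to 0.70 around -0.08 (edgeR adjusted p = 0.949). Without HFD Mof+/- replicate 1, a fit in which the lone library is assumed to vary like the Mof+/+ pair called 4 members, beside 4326 of 15932 genes (27.2%): Vegfb at 1.18, Angpt1 at 2.87, Vegfc at -3.30 and Tek at -1.41. Without HFD Mof+/- replicate 2 it called 6, beside 7551 of 15761 genes (47.9%), with Tek at 1.24, the opposite sign.

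In Mof+/- animals, HFD against SD gave 0 called members and 0 called among 13610 genes by edgeR, with 0 members and 8.57% of all genes at an unadjusted p under 0.05. DESeq2 called 0 members and 470 genes in all. In simulated data of this comparison edgeR again recovered 0% of 200 genes with a 4-fold change. The log2 fold changes were -0.72 for Kdr, -0.04 for Flt1, -2.63 for Flt4, 0.21 for Nrp1 and 0.28 for Tek, and -0.38, 0.13, -1.22, 1.19 and 0.97 for Vegfa, Vegfb, Vegfc, Angpt1 and Angpt2. Their standard errors ran from 0.38 for Nrp1 to 2.13 for Vegfc. Endothelial markers summed to 843 and 972 CPM in HFD Mof+/- and to 535 to 748 CPM in SD Mof+/-, with 13 of 15 above 0 and 0 called. Of the other lists, 15 of 15 muscle markers lay above 0. Below 0 were 6 of 6 mesothelial, 4 of 4 lymphatic, 9 of 10 adipocyte and 9 of 10 progenitor markers. Mural and macrophage markers each had 6 of 10 above 0. The part of these cell types was not tested.

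The test of whether the genotype difference changed with diet called 14 of 15897 genes, or 0.0881%, and 0 members. Angpt1 (4.15, interval 0.76 to 7.54, unadjusted p = 0.0206, edgeR adjusted p = 0.324) and Flt1 (1.57, interval 0.06 to 3.07, unadjusted p = 0.0423, edgeR adjusted p = 0.384) were the 2 members under the unadjusted threshold, beside 12.4% of all genes. The Angpt1 value rests on HFD Mof+/- replicate 2, at 24.4 CPM, since replicate 1 had 0 counts. With 1 library left out it ran from -5.99 to 5.05. For Kdr the interaction was 1.24 with an interval of -0.86 to 3.33 (edgeR adjusted p = 0.634). In simulated data edgeR recovered 0% of 200 genes with a 4-fold interaction, so a change of that size was not detectable by this test. Whether the fall of the 3 receptors on SD differs from the result on HFD was therefore not resolved.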

How the data were processed

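Visceral white adipose tissue of C57BL/6 mice was profiled by polyA mRNA-seq (TruSeq, paired reads, NovaSeq). Per the labels and the methods, the authors aligned reads with STAR to GRCm38 (mm10) and counted reads per gene with featureCounts (Subread 1.5.0-p1). The deposited values are raw counts per gene, 1 table per library. The annotation release and strand setting are not given in the sources used here. The authors tested with DESeq2 1.26.

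From these counts, Ensembl identifiers without their version were matched to GENCODE M21 (GRCm38), with 47224 of 47937 matched. CPM used all gene counts as the total. Tests used edgeR 4.0.16 (R 4.3.3, TMM, filterByExpr, quasi-likelihood) on only the libraries compared, or on all 10 for the interaction, at an adjusted p of 0.05. Standard errors are the fold change over the square root of F. DESeq2 1.42.0, another scaling, no filter, a loess length correction (span 0.3), scaling without muscle and mitochondrial genes, one fit of all libraries, grouping by column headings, a replicate block and each library left out were alternatives. Ratios used a prior count of 0.5. Promoters came from RefSeq (GRCm38.p6).

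The members and all lists were chosen with earlier results of these data known. Named genes were the members, the family and, of every other list, at most the 4 largest changes past the threshold. The 5 sex-linked genes, and 3 lymphatic and 4 smooth muscle markers on SD that did not pass, were named outside this rule after their values were seen. On simulated data, edgeR recovered 43.0% of 200 genes changed 4-fold on SD and 49.0% in the diet comparison of Mof+/+. It recovered 0% in each of the 3 comparisons that use HFD Mof+/- libraries. The simulated counts came from a single draw with edgeR's fitted dispersions, so they are no neutral comparison with DESeq2. The study describes the libraries of a group as biological replicates. No 2 libraries had identical counts. Intervals of fold changes are edgeR's and include the spread between libraries. Limits for 0 counts (3 counts) and intervals of a single library's CPM (exact binomial) cover counting error only. Same-numbered libraries did not deviate together, so the numbers were not used as pairs.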

Additional observations from a re-analysis of the deposited data

How the results depend on the processing

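On SD the count of 3 called members became 5 with DESeq2, 1 with the replicate block, 1 with the length correction, 1 with all 10 libraries in one fit and 0 with grouping by column headings, and 0 to 3 with 1 library left out. The 3 ratios free of overlap became 1 with length-corrected levels and 0 by headings, and 3 to 4 with 1 library left out. In the diet comparison of Mof+/+, 4 became 0 with one fit of all libraries and 0 by headings, and 0 to 6 with 1 library left out. Leaving out 1 library gave 0 to 6 between genotypes on HFD, 0 to 1 for diet in Mof+/- and 0 for the interaction. The other 33 counts stayed within 1.5 times. With the replicate block, whose numbers are only a label here (same-numbered correlations on SD of 0.006, 0.005 and 0.008), Kdr alone was called on SD, and 6 members in the diet comparison of Mof+/+.

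Some directions reversed, and the cause was not tested. With the length correction these were, on SD, Vegfb (-0.23) and Nrp1 (0.31), Nrp1 on HFD (0.026) and in the interaction (-0.41), and the log2 ratio Angpt2/Angpt1 (-0.14). With the replicate block they were Tek on HFD (-0.029), Nrp1 with diet in Mof+/+ (-0.050), and Flt1 (0.12), Angpt1 (-0.75) and Tek (-0.56) with diet in Mof+/-. By headings they were Vegfb on SD (-0.0037), Angpt2 with diet in Mof+/+ (0.31), Angpt1 (-0.18) and Tek (-0.11) with diet in Mof+/-, Angpt2 in the interaction (-0.26), and the log2 ratios Vegfc/Flt4 (1.18), Angpt1/Tek (0.21) and Angpt2/Angpt1 (-1.36).

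With 1 library left out, reversals gave these ranges. On SD Nrp1 went from -0.46 to 0.013. On HFD Nrp1 went from -0.25 to 0.078, Tek from -1.41 to 1.24 and Angpt1 from -8.33 to 2.87. With diet in Mof+/+, Angpt2 went from -0.39 to 0.27 and Nrp1 from -0.079 to 0.39. With diet in Mof+/-, Flt1 went from -0.17 to 0.12, Tek from -1.56 to 1.09, Kdr from -3.63 to 0.079, Vegfb from -0.36 to 0.47, Angpt1 from -8.55 to 2.09 and Angpt2 from -7.71 to 1.87. In the interaction Nrp1 went from -0.15 to 0.32, Flt4 from -7.30 to 0.27, Tek from -0.27 to 2.31, Vegfb from -0.11 to 0.77, Kdr from -1.74 to 2.03, Angpt1 from -5.99 to 5.05 and Angpt2 from -8.02 to 1.95. The log2 ratio Angpt2/Angpt1 went from -0.77 to 0.86 and Vegfc/Flt4 from -2.25 to 0.037. Values under -5 are fitted against a lone library with 0 counts and are no bound.

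Over all genes, calls on SD numbered 727, against 2198 with DESeq2, 1840 without the filter, 428 with the block, 466 with the length correction, 194 with one fit and 0 by headings. Without SD Mof+/+ replicate 1, 2 or 3 they numbered 19, 35 and 74, without SD Mof+/- replicate 2 they numbered 17, and without SD Mof+/- replicate 1 or 3 they numbered 1026 and 668. The diet comparison of Mof+/+ had 1457, against 2967 with DESeq2 (50.3% of them lower, against 38.2%), 142 with one fit and 0 by headings. It had 250, 889 and 2230 without SD Mof+/+ replicate 1, 2 or 3, and 249 and 64 without HFD Mof+/+ replicate 1 or 2. The 2 comparisons with 0 called had, on HFD and with diet in Mof+/-, 198 and 470 with DESeq2 and 200 and 245 with the block, and the latter also 429 without the filter and 189 with one fit. On HFD there were 92 and 102 without Mof+/+ replicate 1 or 2, and 4326 and 7551 without Mof+/- replicate 1 or 2. Diet in Mof+/- had 12 and 2122 without those same HFD Mof+/- libraries. The interaction had 14, against 505 with DESeq2, 380 without the filter, 23 with the length correction and 0 by headings. It had 46 without HFD Mof+/- replicate 1, 3163 without HFD Mof+/- replicate 2 and 4 to 10 without any 1 of the other libraries. Low depth limits HFD Mof+/- replicate 1, where 4 members had 0 counts.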

Other observations

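The genes most like Vegfa and Kdr over the 10 libraries were taken from 15897 genes by Pearson's r of TMM-scaled log2 CPM, as a description with no test. For Vegfa they were Osbpl1a and Slc22a17 (r = 0.93 each), Plpp3 (0.92), Klhl2 and Pdzd2 (0.91 each). For Kdr they were Gba2, Jag2 and Ceacam1 (0.98 each), Eml3 and Ahr (0.97 each). Jag2 encodes a Notch ligand and Ahr the aryl hydrocarbon receptor. Points within a group share diet, age and genotype, and HFD Mof+/- replicate 1, with a Kdr count of 3, is one of them.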
